A study of Mus musculus with 816 samples.

Results

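Mouse neonatal primary microglia were exposed to valproic acid alone at 1000 uM for 24 h, and 6 cultures carried that label and duration among the 784 cultures of the in vitro table and the 816 samples of the series. They were matched to their columns by library number and compared with the 40 cultures labelled as receiving no treatment for 24 h. The cells came from a commercial supplier in 3 lots, were grown in wells of culture plates and are not labelled by animal or litter, so that p-values measure the spread between wells. Transcripts were sequenced from their 3′ ends and their levels given as CPM (read counts scaled to 1 M mapped reads), which allows a gene to be compared between cultures but does not correct for transcript length. The other treatments used here were oleic, linoleic and palmitic acid, each at 150 uM for 24 h, and the untreated wells labelled 72 h that shared a plate with valproic acid.

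Valproic acid is a short branched-chain fatty acid used against seizures and as a mood stabiliser. It inhibits class I histone deacetylases (HDACs), the enzymes that remove acetyl groups from histone tails, and thereby changes transcription of many genes. Microglia are the resident macrophages of the brain. They present antigen through MHC class II after stimulation with interferon gamma, and inhibitors of HDACs are known to alter their inflammatory gene expression.

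The layout of the wells decides what can be compared. Cultures 1 to 4 stood in top-edge wells of a plate, called plate 1 here, whose untreated wells were all labelled 72 h. Cultures 5 and 6 stood in middle wells of plate 2, together with 4 untreated 24 h wells, and came from another cell lot. Both belonged to a different library pool from those 4 untreated wells. On plate 2 treatment and library pool therefore cannot be told apart. Fits of 3 kinds with limma were therefore set side by side, all on log2(CPM + 1) and with a call at a Benjamini-Hochberg adjusted p under 0.05 and a change of at least 1 on the log2 scale. The plate fit used all 40 untreated 24 h wells with plate as a term, and only cultures 5 and 6 had untreated wells on their plate, so that its estimate is 2 cultures against 4 wells. The lot fit replaced plate by cell lot, which set cultures 1 to 4 against 8 untreated 24 h wells of their lot and cultures 5 and 6 against 13, and left differences between plates in. The same-plate fit set all 6 cultures against the untreated wells of their own plates, 4 at 24 h and 4 at 72 h, so that on plate 1 treatment and time cannot be told apart.

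Depth, as estimated from the step between low values, was 1.46 to 11.3 M reads (M, 1e6 reads) in the valproic acid cultures and 1.07 to 14.8 M reads in the untreated 24 h wells. Culture 5 stood apart from the other valproic acid cultures. It had the lowest depth of the 6, and 7362 genes over 5 CPM where the others had 8684 to 9320. Its correlation with the other 5 over genes was 0.711 to 0.766, against 0.814 to 0.885 among those. Of 7580 genes over 5 CPM in all 4 untreated wells of plate 2, culture 5 had 746 (9.84%) under 1 CPM, and the other cultures had 37 to 158. Among the untreated 24 h wells of the lot used on plate 1, the edge wells also differed from the middle ones. Cx3cr1, the fractalkine receptor of microglia, was at 76.0 and 33.1 CPM in the 2 edge wells and at 335 to 529 CPM in the 6 middle wells. For cultures 1 to 4 against 24 h wells, position in the plate, plate and treatment cannot be told apart. Values without culture 5 are given beside most calls of the plate fit. In that case the plate fit sets culture 6 alone against 4 wells and assumes that it varies like the untreated wells and cultures 1 to 4, so that a call can be lost with no smaller fold change, while the lot fit keeps 5 cultures.

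Microglial identity was checked first. The summed level of 14 microglia markers was 7552 to 10153 CPM in the 6 valproic acid cultures and 4988 to 11576 CPM in the untreated 24 h wells. Csf1r, Fcrls, Trem2 and Spi1 were detected in all 6. P2ry12, a defining receptor of brain microglia, was low in these cultures, at 0.554 to 5.55 CPM with valproic acid and a median of 3.49 CPM without treatment. The defining neuronal markers Snap25, Syt1, Nefl and Nefm were listed at 0 in all 6, but Rbfox3 was at 0 to 18.1 CPM (untreated 24 h median 1.29 CPM) and Stmn2 at 6.71 CPM in culture 2. Of the oligodendrocyte markers, Mog, Mobp, Olig2 and Sox10 were listed at 0 in all 6, whereas Mbp was at 13.1 to 57.4 CPM, Cspg4 at 10.7 to 32.3 CPM, Mag at 0.185 to 29.6 CPM and Cnp at 0 to 24.95 CPM. Their untreated 24 h medians were 32.6, 19.5, 7.64 and 20.99 CPM.

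Across all genes, valproic acid was followed by changes in both directions, and their number depended on the fit. In the plate fit 184 of 11615 genes were called higher (1.58%) and 763 lower (6.57%). The lot fit called 485 higher (4.18%) and 572 lower (4.92%), and the same-plate fit called 146 higher (1.47%) and 56 lower (0.563%) of 9942. Without culture 5 the plate fit called 11 higher (0.0950%) and 16 lower (0.138%), and without culture 6 it called 550 and 2053. The median log2 fold change of all genes was −0.25 in the plate fit, −0.03 in the lot fit and 0.02 in the same-plate fit. Between the lots of plates 1 and 2, the change with valproic acid differed for 1216 of 10858 genes in an interaction test with limma, being higher in the lot of plate 1 for 1088 (10.0%) and lower for 128 (1.18%).

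Calls from plate 2 were then read on plate 1, whose wells had no part in the estimated change. Cultures 1 to 4 did count in the filter, which asked for over 5 CPM in at least 4 cultures. A gene under 5 CPM in all untreated 24 h wells, such as Sox12 or Rundc3a, could be tested only with cultures of plate 1 over 5 CPM. For such rises a higher level on plate 1 is partly set by the filter, and their number was not counted. Of the 184 genes called higher, 153 (83.2%) had a higher mean with valproic acid on plate 1 as well, where 61.4% of all genes did. For 50 of them (27.2%) the 4 valproic acid cultures lay above all 4 untreated wells, against 6.53% of all genes. Of the 763 called lower, 330 (43.3%) were lower on plate 1, where 38.1% of all genes were, and 28 (3.67%) lay below all 4 untreated wells, against 2.34%. The untreated wells of plate 1 were of another time, and the difference between rises and falls was not tested. Together the plate, lot and same-plate fits called 50 genes higher and 19 lower.

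**Figure D1:**
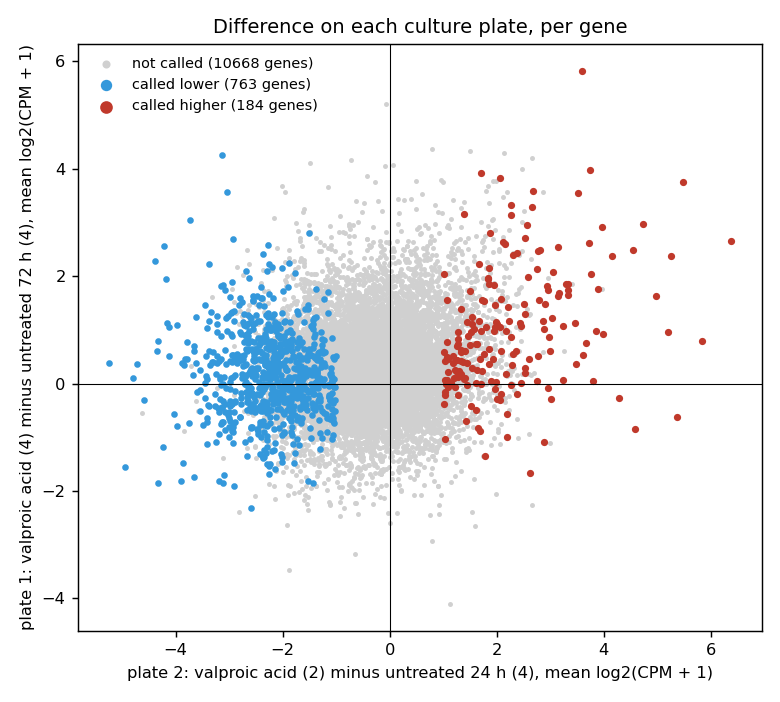
Difference in mean log2(CPM + 1) between valproic acid and untreated wells for each gene tested, on plate 2 (horizontal axis, 2 cultures against 4 wells of 24 h) and on plate 1 (vertical axis, 4 cultures against 4 wells of 72 h). Most of the 184 genes called higher in the plate fit (red) lie above the zero line on plate 1, with 153 higher there, while the 763 called lower (blue) spread to both sides of it.

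The largest rises were in genes of varied function, several of them better known from neurons than from macrophages. By the rule for named genes, 65 rises were called, reached a mean of 10 CPM and showed no overlap between the 6 cultures and the untreated 24 h wells of their plates, which were the 4 of plate 2, and the 10 largest were Trim46, Cyp4f18, Hspb1, Ndrg4, Sox12, Camk2n2, Prss16, Cacnb3, Cyb561 and H2-Ab1. By another criterion, the cultures of each plate were set against its own untreated wells, those of 72 h on plate 1. Over all genes, 167 (1.44%) were then higher without overlap on both plates and 89 (0.766%) lower. These shares do not apply to the 65 rises, for which the 72 h wells were not used. All 10 were also called in the lot fit. The same-plate fit called 8 of the 9 it could test, and Camk2n2 missed the threshold. The lot fit without culture 5 called 9 of the 10, and Cyb561 did not pass the filter.

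Cyp4f18, at chr8:71988482-72009626 of GRCm38 on the minus strand, encodes a cytochrome P450 that hydroxylates leukotriene B4. Its level was 30.4, 53.7, 64.3 and 30.8 CPM in cultures 1 to 4, and the 4 untreated wells of plate 1 were at 0, 2.57, 3.82 and 5.15 CPM. Cultures 5 and 6 were at 148 and 45.5 CPM, and the untreated wells of plate 2 at 0, 0, 0.634 and 6.51 CPM. All 6 valproic acid cultures lay above the highest of the 40 untreated 24 h wells, at 22.5 CPM. The log2 fold change was 5.48 ± 0.76 (SE) in the plate fit with adjusted p = 4.43e-06, 3.55 ± 0.46 in the lot fit with adjusted p = 3.33e-07, and 4.45 ± 0.59 in the same-plate fit with adjusted p = 0.00113. Without culture 5 the plate fit gave 4.63 with adjusted p = 0.0120.

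Trim46, on chromosome 3, organises parallel microtubules at the start of the axon. It was at 8.63, 11.7, 11.5 and 64.0 CPM in cultures 1 to 4 and at 53.9 and 150 CPM in cultures 5 and 6. Untreated wells were at 0.182, 1.25, 1.38 and 9.09 CPM on plate 1 and at most 0.211 CPM on plate 2. The ranges touched on plate 1, where culture 1 lay below the highest untreated well, and untreated 24 h wells of other plates reached 47.2 CPM. In the plate fit the log2 fold change was 6.38 ± 1.16 (adjusted p = 0.000387), and it was 7.11 without culture 5 (adjusted p = 0.0120).

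Ndrg4, a member of the N-myc downstream regulated family found mainly in brain and heart, stood clear of its untreated wells on both plates. Cultures 1 to 4 had 6.47, 22.1, 21.1 and 13.6 CPM against at most 2.08 CPM in the untreated wells, and cultures 5 and 6 had 35.03 and 23.7 CPM against at most 0.369 CPM. The plate fit gave a log2 fold change of 4.73 ± 0.73 (adjusted p = 4.45e-05) and the same-plate fit 3.67 ± 0.47 (adjusted p = 0.00113). Sox12, a transcription factor of the SoxC group, was listed at 0 in all 4 untreated wells of plate 1 and was at 5.51, 6.04, 1.85 and 6.55 CPM in the cultures there. In cultures 5 and 6 it reached 30.3 and 23.1 CPM, against at most 4.199 CPM in any untreated 24 h well. Ndrg4 and Sox12 kept their calls in the plate fit without culture 5, with adjusted p = 0.0137 and 0.00464.

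Hspb1 encodes the small heat shock protein HSP27, and its 6 values ran from 21.5 to 125 CPM with a median of 45.1 CPM. On plate 2 the untreated wells were at 0.352 to 2.03 CPM. On plate 1 they were at 3.27, 11.6, 17.38 and 41.3 CPM, so that the groups overlapped there, and without culture 5 the adjusted p of the plate fit was 0.442. Camk2n2, an inhibitor of calcium/calmodulin-dependent kinase II, overlapped on plate 1 in the same way, with 15.43 to 46.6 CPM against 3.36 to 48.2 CPM, and its adjusted p was 0.481 without culture 5.

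Prss16, a serine protease of the thymus, was at 5.27 to 17.37 CPM in cultures 1 to 4 and at 35.7 and 13.01 CPM in cultures 5 and 6. Its untreated wells reached 5.27 CPM on plate 1 and 3.52 CPM on plate 2. Cacnb3, a beta subunit of voltage-gated calcium channels, had 1.92, 8.05, 23.7 and 23.1 CPM in cultures 1 to 4. The untreated wells of plate 1 were at 0, 2.32, 2.55 and 8.89 CPM, so that the groups overlapped there. Cultures 5 and 6 had 20.9 and 16.5 CPM, against at most 0.804 CPM in the untreated wells of plate 2. Untreated 24 h wells of other plates reached 10.2 CPM. Leaving out culture 5, the plate fit gave 3.26 for Prss16 and 3.73 for Cacnb3 on the log2 scale and called neither (adjusted p = 0.243 and 0.157). Cyb561 is a transmembrane electron carrier of secretory vesicles. Among these largest rises it varied most relative to its mean, from 0.554 to 88.9 CPM, and was listed at 0 in all 4 untreated wells of plate 2. In the plate fit its rise rested on culture 5, since culture 6 had 1.04 CPM. On plate 1, cultures 1 to 4 were at 2.16, 26.2, 0.554 and 8.39 CPM, and the untreated wells reached 2.08 CPM. The lot fit called Cyb561 with all cultures (2.57 ± 0.49, adjusted p = 0.000187).

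**Figure D2:**
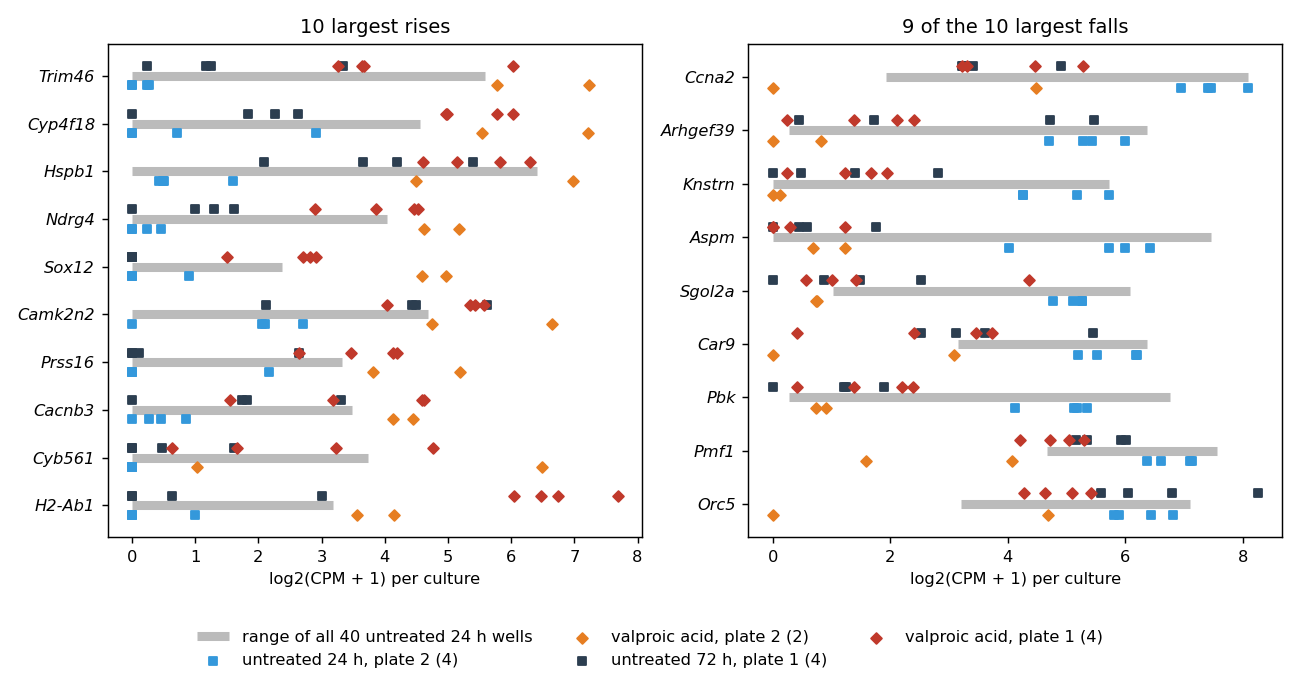
Level of the 10 largest rises and 9 of the 10 largest falls in each culture, as log2(CPM + 1), with valproic acid as diamonds, untreated wells of the same plate as squares, and the range of all 40 untreated 24 h wells as a grey bar. Cyp4f18 and H2-Ab1 lay above that bar in all 6 valproic acid cultures, whereas for the mitotic genes Ccna2, Knstrn, Aspm and Pbk the untreated 72 h wells of plate 1 overlapped with the valproic acid cultures.

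Among MHC class II genes, H2-Aa, H2-Ab1 and H2-DMa rose in the plate fit. Of 10 genes listed, 6 passed the filter on low values and 3 were called higher in the plate fit (1.58% of all genes), 4 in the lot fit (4.18%) and 3 of 4 in the same-plate fit (1.47%), with none called lower. The plate fit called none of the 6 without culture 5 (0.0950% of all genes), with a median log2 fold change of 1.93. In the plate, lot and same-plate fits with all cultures the median was 1.92, 1.90 and 3.24. H2-Aa and H2-Ab1 encode the chains of the I-A molecule, H2-DMa a chain of the chaperone that loads its peptides, and H2-Ob a chain of the inhibitor of that chaperone. Of 12 MHC class I genes tested, none was called higher in any of these fits, and Psmb10 was called lower in the plate and lot fits.

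Since these genes lie together in the MHC on chromosome 17 and were called higher in 1 or more of the fits, the RefSeq promoters of the members with an entry are shown, each from 250 bases before to 50 bases after the start (GRCm38), and a CCAAT box, the letters CCAAT or ATTGG on either strand, is in capitals. H2-Aa lies at chr17:34287774-34288073 on the minus strand, with the box 48 bases before the start. H2-Ob lies at chr17:34238655-34238954 on the plus strand, with the box 57 bases before the start. H2-DMa lies at chr17:34122582-34122881 on the plus strand, with no match in the window. This window lies inside the span of H2-DMa in GENCODE M21, chr17:34119541-34139101, and other starts of the gene were not read. It also covers the start of Brd2, a gene on the minus strand, at 34122634.
H2-Aa: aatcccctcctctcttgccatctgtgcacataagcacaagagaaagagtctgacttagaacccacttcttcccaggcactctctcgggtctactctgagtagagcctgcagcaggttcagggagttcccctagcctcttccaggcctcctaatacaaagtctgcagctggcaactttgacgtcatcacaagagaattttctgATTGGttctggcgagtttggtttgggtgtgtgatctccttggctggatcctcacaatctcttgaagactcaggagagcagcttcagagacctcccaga
H2-Ob: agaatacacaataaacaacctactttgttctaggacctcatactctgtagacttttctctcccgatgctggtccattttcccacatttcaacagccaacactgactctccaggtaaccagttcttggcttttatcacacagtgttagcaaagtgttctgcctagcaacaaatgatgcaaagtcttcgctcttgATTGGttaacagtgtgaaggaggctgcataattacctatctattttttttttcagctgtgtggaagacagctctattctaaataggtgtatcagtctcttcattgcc
H2-DMa: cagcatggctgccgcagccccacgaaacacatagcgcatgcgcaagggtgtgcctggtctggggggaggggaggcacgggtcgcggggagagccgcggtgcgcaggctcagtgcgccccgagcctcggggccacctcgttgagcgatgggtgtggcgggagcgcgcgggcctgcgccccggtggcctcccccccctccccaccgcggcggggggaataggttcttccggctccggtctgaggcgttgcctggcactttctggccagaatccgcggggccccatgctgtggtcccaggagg
The same letters occurred in 10248 of 27025 promoters (37.9%) of this length, and the match is a description only.

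H2-Ab1, at chr17:34257689-34269419, showed the clearest rise on plate 1. It was at 87.7, 64.7, 106 and 205 CPM in cultures 1 to 4 and at 0, 0, 0.546 and 7.06 CPM in the untreated wells of that plate. Cultures 5 and 6 were lower, at 10.8 and 16.7 CPM, against 0, 0, 0 and 1.01 CPM. All 6 cultures lay above the highest untreated 24 h well, at 8.02 CPM. The log2 fold change was 3.599 ± 0.75 in the plate fit (adjusted p = 0.00139), 4.76 ± 0.48 in the lot fit (adjusted p = 4.06e-10) and 4.94 ± 0.57 in the same-plate fit (adjusted p = 0.000396). Without culture 5 the plate fit gave 3.89 with adjusted p = 0.0610. Between lots the rise differed, being larger by 3.08 on the log2 scale in the lot of plate 1 (adjusted p = 0.0131 for the interaction with limma).

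Its partner H2-Aa did not follow the same order of cultures. It was listed at 0 in cultures 1, 2 and 3, and was at 13.1 CPM in culture 4, 52.5 CPM in culture 5 and 39.7 CPM in culture 6. Untreated wells of plate 2 were at most at 0.879 CPM, and the highest untreated 24 h well was at 12.4 CPM. H2-Aa was called higher in the plate fit (5.204 ± 0.92, adjusted p = 0.000297) and in the lot fit (1.84 ± 0.61, adjusted p = 0.0361), but not in either fit without culture 5 (adjusted p = 0.0522 and 0.207). H2-Aa and H2-Ab1 thus stood in opposite order on the plates, H2-Ab1 being higher in cultures 1 to 4 and H2-Aa in cultures 5 and 6.

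H2-DMa was the most even of the group, at 72.9, 127, 99.6 and 82.7 CPM in cultures 1 to 4 and 51.9 and 109 CPM in cultures 5 and 6. Untreated wells were at 1.38, 2.18, 6.91 and 23.7 CPM on plate 1 and at 15.9, 21.8, 25.1 and 28.7 CPM on plate 2, with no overlap on either. The change was 1.71 ± 0.53 on the log2 scale in the plate fit (adjusted p = 0.0345) and 3.04 ± 0.52 in the same-plate fit (adjusted p = 0.00540). Without culture 5 the plate fit gave 2.23 and did not call it (adjusted p = 0.193), and the lot fit gave 2.08 (adjusted p = 1.47e-05). H2-Ob was at 15.1 to 26.3 CPM in cultures 1 to 4, and at 13.5 and 5.12 CPM in cultures 5 and 6. It reached at most 0.689 CPM in the untreated wells of plate 1 and 3.69 CPM in those of plate 2. H2-Ob was called in the lot fit (3.02 ± 0.45, adjusted p = 4.41e-06) and the same-plate fit (3.44 ± 0.53, adjusted p = 0.00274), and not in the plate fit (adjusted p = 0.0929).

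Summed dendritic cell markers overlapped between the groups on both plates. The sum of 5 dendritic cell markers was 15.5 to 62.9 CPM in cultures 1 to 4 and 33.3 to 59.8 CPM in the untreated wells of plate 1, and 327 to 591 CPM against 341 to 454 CPM on plate 2, most of it Itgax. Cd209a was listed at 0 in all 6, and Flt3 was at most 2.68 CPM. Zbtb46 was at 2.16 to 14.8 CPM in 5 of the 6 and at 0 in culture 5, against untreated medians of 0 CPM on plate 1 and 0.729 CPM on plate 2. Its part in the MHC class II values was not tested. Cd79a and Cd79b, which define B cells, were listed at 0 in all 6.

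Several members of other lists rose in the plate, lot and same-plate fits alike. Selplg, the P-selectin ligand, was at 268, 273, 263 and 299 CPM in cultures 1 to 4 and at 317 and 376 CPM in cultures 5 and 6. All 6 lay above the untreated 24 h wells, which ran from 92.5 to 239 CPM with a median of 151 CPM. Its log2 fold change was 1.08 ± 0.27 in the plate fit (adjusted p = 0.00743), 1.02 ± 0.16 in the lot fit (adjusted p = 1.61e-05) and 1.36 ± 0.21 in the same-plate fit (adjusted p = 0.00266), and without culture 5 it was 1.20 in the plate fit (adjusted p = 0.156) and 1.049 in the lot fit (adjusted p = 8.75e-05). Phgdh, which catalyses the first step of serine synthesis, ran from 11.2 to 52.9 CPM with a median of 34.4 CPM and lay above all untreated wells of its own plates, which reached 24.7 CPM on plate 1 and 5.71 CPM on plate 2. Ccr1, a receptor for inflammatory chemokines, was at 10.3 to 30.5 CPM in cultures 1 to 4 against at most 6.89 CPM, and at 83.5 and 40.5 CPM in cultures 5 and 6 against at most 12.19 CPM. The plate fit gave 2.15 ± 0.61 for Phgdh (adjusted p = 0.0199) and 2.75 ± 0.66 for Ccr1 (adjusted p = 0.00560), and without culture 5 it gave 1.45 and 2.24 and called neither (adjusted p = 0.703 and 0.426).

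Of 20 listed neuronal genes regulated by the repressor REST, 5 could be tested in the plate and lot fits and 3 in the same-plate fit. Uchl1, a ubiquitin hydrolase abundant in neurons, was the only one called in these fits. It was called higher, beside shares of all genes of 1.58%, 4.18% and 1.47%. Cultures 1 to 4 were at 258, 420, 312 and 323 CPM, but the untreated wells of plate 1 were high as well, at 104, 107, 147 and 329 CPM. Cultures 5 and 6 were at 5.39 and 26.8 CPM against at most 1.06 CPM on plate 2. Its rise was 3.24 ± 0.81 on the log2 scale in the plate fit (adjusted p = 0.00771), 1.94 ± 0.44 in the same-plate fit (adjusted p = 0.0282) and 4.30 without culture 5 (adjusted p = 0.0475).

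A further 5 genes were chosen after their values were seen, and all were called higher in the plate, lot and same-plate fits. Got2, the mitochondrial aspartate aminotransferase, stood out for its level and evenness. It was at 376, 355, 259 and 384 CPM in cultures 1 to 4 and at 674 and 453 CPM in cultures 5 and 6. The untreated wells were at 113, 155, 171 and 178 CPM on plate 1 and at 111, 142, 145 and 161 CPM on plate 2, and the highest of the 40 untreated 24 h wells was at 198 CPM. On the log2 scale its rise was 1.99 ± 0.27 in the plate fit (adjusted p = 2.00e-06), and 1.70 without culture 5 (adjusted p = 0.00555).

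Pf4, a chemokine of platelets and macrophages, was at 506 to 952 CPM with a median of 690 CPM, and the untreated 24 h wells at 53.7 to 359 CPM. Fn1, fibronectin, was at 79.8 to 145 CPM, above the untreated wells of plate 1 (at most 26.2 CPM) and plate 2 (at most 32.4 CPM), while untreated 24 h wells of other plates reached 153 CPM. Rundc3a and Aplp1, both known mainly from neurons, were at 5.70 to 27.4 CPM and at 15.39 to 40.9 CPM. All 6 cultures lay above every untreated 24 h well for both, the highest of which was at 4.81 CPM for Rundc3a and 8.14 CPM for Aplp1. Without culture 5, the plate fit called none of Pf4, Fn1, Rundc3a and Aplp1, with adjusted p from 0.137 to 0.530. Their log2 fold changes were then 1.15, 2.25, 3.70 and 2.87, against 1.49, 2.05, 3.51 and 2.53 with all cultures, and the lot fit without culture 5 called all 4 (adjusted p from 1.69e-06 to 0.00398).

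Several of the largest falls were in genes known from cell division. By the rule for named genes 142 falls qualified, and of the 10 largest the 9 reported here were Ccna2, Arhgef39, Knstrn, Aspm, Sgol2a, Car9, Pbk, Pmf1 and Orc5. All 9 were called in the lot fit and 2, Pmf1 and Orc5, in the same-plate fit. The plate fit without culture 5, then resting on culture 6, called Pmf1 and none of the other 8, while the lot fit called all but Orc5. Several log2 fold changes of the plate fit were about as large without culture 5, at −4.74 for Knstrn, −4.35 for Sgol2a and −4.86 for Aspm, against −4.80, −4.35 and −4.59 with it.

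Pmf1, a subunit of the kinetochore, and Orc5, a subunit of the origin recognition complex, were the falls among these 9 that were called in all 3 fits. Pmf1 was at 31.9, 38.5, 25.3 and 17.6 CPM in cultures 1 to 4 against 34.8, 39.7, 60.0 and 63.9 CPM in the untreated wells. In cultures 5 and 6 it was at 2.02 and 15.9 CPM against 81.5, 97.2, 136 and 140 CPM. Its log2 fold change was −3.97 ± 0.46 in the plate fit (adjusted p = 1.29e-07) and −2.73 without culture 5 (adjusted p = 0.00464). Orc5 was listed at 0 in culture 5 and was at 18.4 to 41.9 CPM in the others, and without culture 5 its adjusted p was 0.745. Car9, a carbonic anhydrase of the cell surface, was at 0 to 12.29 CPM against 35.8 to 72.3 CPM in the untreated wells of plate 2, and untreated wells of plate 1 were at 4.73, 7.69, 11.2 and 42.9 CPM. Its log2 fold change went from −4.24 to −2.70 without culture 5 (adjusted p = 0.164).

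Of 19 genes of cholesterol synthesis, the plate fit called 8 lower, where 6.57% of all genes were lower, and none higher. The lot fit called 5 lower, and the same-plate fit and the plate fit without culture 5 called 1 each. Their median log2 fold change was −1.46, −0.87, −0.62 and −0.51 in these fits. Msmo1, a sterol oxidase of the pathway, was at 97.5, 104, 122 and 85.9 CPM in cultures 1 to 4, in the range of the untreated wells of plate 1 (97.3 to 122 CPM). In cultures 5 and 6 it was at 43.6 and 55.6 CPM, below the untreated wells of plate 2 (122 to 233 CPM). Hmgcs1, which makes the precursor of mevalonate, was at 0.674 CPM in culture 5 and at 8.50 to 15.43 CPM in the others. Untreated wells were at 18.6 to 41.6 CPM on plate 2, above both cultures there, and at 3.44 to 41.6 CPM on plate 1, where the groups overlapped. Srebf2, the transcription factor that drives the pathway, ran from 20.5 to 69.1 CPM against 107 to 127 CPM on plate 2, with a log2 fold change of −1.46 ± 0.37 (adjusted p = 0.00909) that was −0.72 without culture 5 (adjusted p = 0.806). Stard4, a sterol carrier, fell in the plate fit (−2.60 ± 0.65, adjusted p = 0.00781) and the lot fit (−1.74 ± 0.40, adjusted p = 0.00188). None of Msmo1, Hmgcs1 and Stard4 was called by the plate fit without culture 5 (adjusted p = 0.0610, 0.668 and 0.703).

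Of 29 genes of the cell cycle tested, the plate fit called 4 lower, where 6.57% of all genes were lower, and none higher. The lot fit called 13 lower (4.92% of all genes) and 1 higher, the same-plate fit 1 lower and 1 higher, and the plate fit without culture 5 none. The median log2 fold change was −1.16, −1.30, −0.28 and −0.98 in these fits. Well position was read for 1 gene of dividing cells, the topoisomerase Top2a. It was at 46.5 and 7.31 CPM in the 2 untreated 24 h edge wells of the lot used on plate 1. The 6 middle wells were at 212 to 822 CPM, and cultures 1 to 4, all in edge wells, were at 19.5 to 51.8 CPM. The part of position in the values of the list was not tested. Ccna2, the cyclin of S phase and G2, was at 8.36, 8.94, 38.03 and 21.04 CPM in cultures 1 to 4, and the untreated wells of plate 1 were at 8.31, 8.42, 9.63 and 29.1 CPM. On plate 2 it was at 0 and 21.5 CPM in cultures 5 and 6, against 123, 168, 175 and 273 CPM. Aspm, Knstrn, Sgol2a and Pbk, which act at the mitotic spindle or in mitosis, overlapped with the untreated wells of plate 1 in the same way. Aspm was at most 1.35 CPM in the 6 cultures and at most 2.37 CPM in the untreated wells of plate 1, against 15.3 to 84.4 CPM in those of plate 2.

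Pcna, the sliding clamp of DNA replication, was the cell cycle gene called lower in the 3 fits. It was at 498, 399, 564 and 605 CPM in cultures 1 to 4 against 680, 719, 772 and 1059.9 CPM in the untreated wells, and at 114 and 182 CPM in cultures 5 and 6 against 416, 524, 599 and 630.3 CPM. The groups did not overlap on either plate. Its log2 fold change was −1.89 ± 0.36 in the plate fit (adjusted p = 0.000580), −1.56 ± 0.29 in the lot fit (adjusted p = 0.000142) and −1.14 ± 0.23 in the same-plate fit (adjusted p = 0.0132), with adjusted p = 0.170 in the plate fit without culture 5. Cdk1, the mitotic kinase, was called lower in the plate fit (−3.45 ± 0.76, adjusted p = 0.00251) with culture 5 at 1.35 CPM and culture 6 at 78.7 CPM, and not without culture 5 (adjusted p = 0.906). Mki67 was at 0.185 to 7.41 CPM, and was not called in any of the 3 fits (adjusted p = 0.274, 0.0582 and 0.522).

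Ccnd2, the D-type cyclin of G1, went the other way. It was at 12.202, 89.3, 20.9 and 9.76 CPM in cultures 1 to 4 and at most 5.01 CPM in the untreated wells of plate 1. In cultures 5 and 6 it was at 256 and 187 CPM, above the 52.7 to 117 CPM of plate 2. The lot fit (2.58 ± 0.34, adjusted p = 4.14e-07) and the same-plate fit (2.49 ± 0.52, adjusted p = 0.0182) called it higher, and the plate fit did not (1.34 ± 0.54, adjusted p = 0.112).

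Genes often used as readouts of HDAC inhibition gave a mixed result. Of 16 tested, the plate fit called Hist1h1c and Bmf higher (1.58% of all genes) and none lower (6.57%). The lot fit called 2 higher (4.18%) and 1 lower (4.92%). The same-plate fit called none of 14, where 1.47% of all genes were higher and 0.563% lower. Cdkn1a, which encodes the cell cycle inhibitor p21, was at 1874, 1973, 2379.8 and 2227 CPM in cultures 1 to 4, and the untreated wells of plate 1 were at 1294, 1604, 1802 and 1923 CPM. In cultures 5 and 6 it was at 542 and 556 CPM, within the 536 to 612 CPM of the untreated wells. The log2 fold change was −0.05 ± 0.32 in the plate fit (adjusted p = 0.944), 0.25 ± 0.24 in the lot fit (adjusted p = 0.528) and 0.20 ± 0.13 in the same-plate fit (adjusted p = 0.473). The level of Cdkn1a differed between the plates by more than it differed with treatment on either.

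Bmf, a BH3-only promoter of apoptosis, was at 30.9 to 63.3 CPM with a median of 43.0 CPM, and untreated 24 h wells were at 1.84 to 37.8 CPM. It was called higher in the plate fit (1.86 ± 0.62, adjusted p = 0.0489) and the lot fit (1.76 ± 0.37, adjusted p = 0.000789), and not in the same-plate fit (adjusted p = 0.0950) or the plate fit without culture 5 (1.62, adjusted p = 0.642). Hist1h1c, a linker histone, rose in the plate fit by 1.096 ± 0.33 (adjusted p = 0.0302). It had 0.39 ± 0.20 in the lot fit (adjusted p = 0.186) and 1.55 in the plate fit without culture 5 (adjusted p = 0.0998). H1f0, the replacement linker histone, had log2 fold changes of 0.39, 0.63 and 1.30 that did not pass the test in any of the 3 fits (adjusted p = 0.678, 0.105 and 0.191). Of 17 histone genes tested, 1 was called higher in the plate fit (1.58% of all genes) and 2 in the lot fit (4.18%). The same-plate fit called 1 of 16 higher (1.47%). None was lower in these fits, against 6.57%, 4.92% and 0.563% of all genes. H1fx, a further linker histone, was at 11.3 to 79.8 CPM and above the untreated wells of both plates, which reached 10.7 CPM on plate 1 and 9.93 CPM on plate 2. It was called in the lot fit (3.29 ± 0.56, adjusted p = 4.33e-05) and the same-plate fit (3.29 ± 0.62, adjusted p = 0.0101), and had adjusted p = 0.0545 in the plate fit. Klf2, a transcription factor of quiescence, was lower in the lot fit (−2.13 ± 0.41, adjusted p = 0.000203).

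Of 10 genes of the HDACs themselves that were tested, 1 was called lower in the plate fit (6.57% of all genes) and 1 in the lot fit (4.92%). The same-plate fit called none of 8 lower (0.563% of all genes). The call for Hdac1 in the plate fit rested on culture 5, where it was listed at 0, while the other 5 cultures were at 23.7 to 43.99 CPM and the untreated 24 h wells had a median of 27.7 CPM. Of 15 corepressors and bromodomain readers, 2 were called lower in the plate fit, 3 in the lot fit and 1 in the same-plate fit. The shares of all genes were 6.57%, 4.92% and 0.563%. None was called higher, against 1.58%, 4.18% and 1.47% of all genes. Brd2, a bromodomain reader of acetylated histones, fell in the 3 fits. It was at 63.0, 79.8, 71.5 and 101 CPM in cultures 1 to 4 against 172, 206, 288 and 562 CPM, and at 35.03 and 90.3 CPM in cultures 5 and 6 against 126, 163, 166 and 214 CPM. There was no overlap on either plate, and the log2 fold change was −1.53 ± 0.31 in the plate fit (adjusted p = 0.00117), −1.001 ± 0.18 in the lot fit (adjusted p = 0.000109) and −1.70 ± 0.28 in the same-plate fit (adjusted p = 0.00423). Without culture 5 the plate fit gave −0.86 (adjusted p = 0.534). Ep300, a histone acetyltransferase, was called lower in the plate fit (−2.56 ± 0.67, adjusted p = 0.0123) and the lot fit (−1.65 ± 0.43, adjusted p = 0.00696), but not in the same-plate fit (adjusted p = 0.841) or in the plate fit without culture 5 (−1.48, adjusted p = 0.730).

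**Figure D3:**
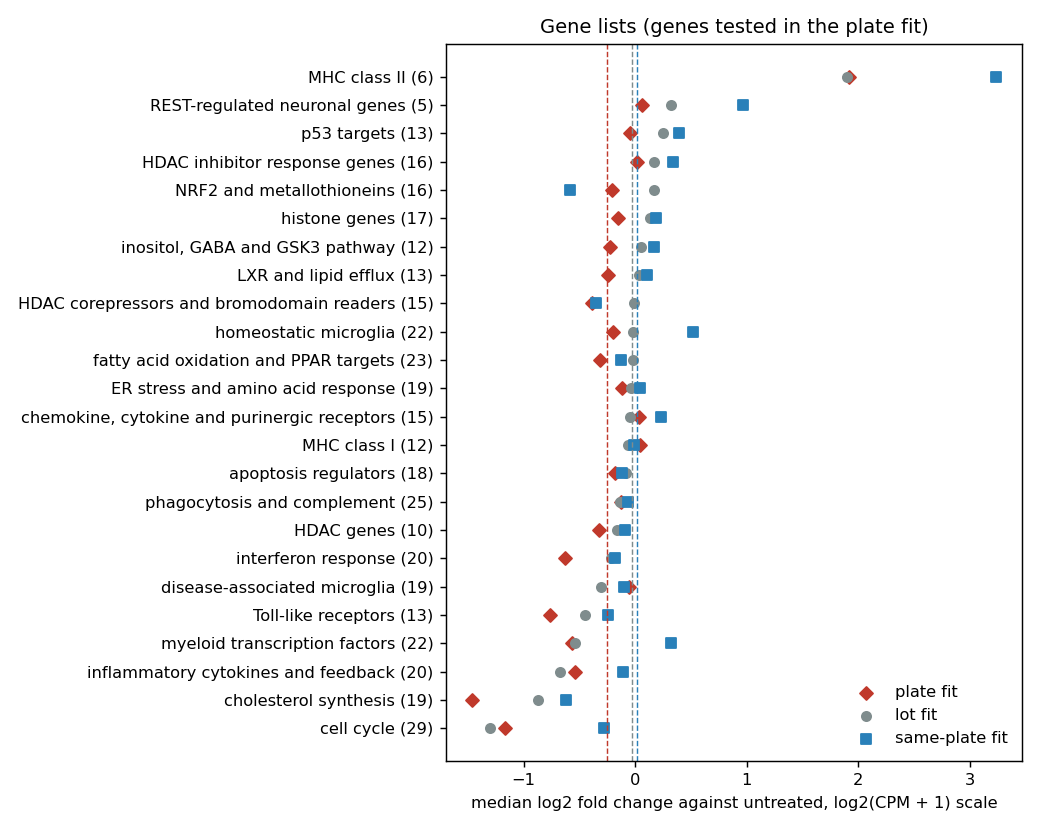
Median log2 fold change of the tested members of each gene list other than cell type markers (number in brackets). Symbols show the plate fit (diamonds), the lot fit (circles) and the same-plate fit (squares), with dashed lines at the median of all genes in each fit. Of the lists shown, MHC class II stood highest in all 3 fits, at 1.92, 1.90 and 3.24. Cholesterol synthesis and cell cycle genes stood lowest among them in the plate and lot fits.

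Markers of microglia in their resting state were called in both directions. Of 22 genes tested the plate fit called Selplg higher (1.58% of all genes) and Aif1 lower (6.57%). The lot fit called 2 higher (4.18%) and 2 lower (4.92%). In the same-plate fit 3 of 20 were higher (1.47% of all genes) and none lower (0.563%). Aif1, which encodes the microglial marker IBA1, was at 21.7 to 35.7 CPM in the 6 cultures and at 30.4 to 140 CPM in the untreated 24 h wells, with a log2 fold change of −1.36 ± 0.35 in the plate fit (adjusted p = 0.00909) and −1.70 without culture 5 (adjusted p = 0.0731). On plate 1 its untreated wells were at 9.64 to 36.9 CPM and overlapped with the cultures. Cx3cr1 was at 277, 208, 273 and 298 CPM in cultures 1 to 4 against 10.3, 29.7, 35.3 and 44.7 CPM, and at 699 and 511 CPM in cultures 5 and 6 against 378, 413, 451 and 468 CPM. It was called only in the same-plate fit (2.15 ± 0.42, adjusted p = 0.0131). The untreated wells of 24 h in the lot of plate 1 had a median of 361 CPM. Among these, edge wells were at 76.0 and 33.1 CPM and middle wells at 335 to 529 CPM. Cultures 1 to 4 stood in edge wells, and the part of position was not tested. Tmem119 was at 45.5 to 76.0 CPM in 5 cultures and at 3.37 CPM in culture 5, and had adjusted p = 0.748, 0.146 and 0.208 in the plate, lot and same-plate fits.

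In the list of disease-associated microglia, 2 of 19 tested genes were called lower in the plate fit (6.57% of all genes) and none higher (1.58%). The lot fit called 4 lower (4.92%) and 2 higher (4.18%). In the same-plate fit 1 of 18 was lower (0.563%) and none higher (1.47%). Igf1, a growth factor made by microglia, was at 926, 799.8, 782 and 1113 CPM in cultures 1 to 4 and at 337 and 295 CPM in cultures 5 and 6, against 597 to 825 CPM in the untreated wells of plate 2. It was lower by −1.15 ± 0.22 in the plate fit (adjusted p = 0.000646) and by −1.25 without culture 5 (adjusted p = 0.0387), and its same-plate change of −0.71 was not called (adjusted p = 0.0854). Fabp5, a fatty acid binding protein, was at 119 to 212 CPM in cultures 1 to 4 and at 56.2 and 73.9 CPM in cultures 5 and 6, with untreated wells at 191 to 359 CPM on plate 1 and 183 to 237 CPM on plate 2. The log2 fold change was −1.66 ± 0.28, −1.19 ± 0.19 and −1.10 ± 0.22 in the plate, lot and same-plate fits (adjusted p = 0.000177, 1.40e-05 and 0.0131), and −1.46 in the plate fit without culture 5 (adjusted p = 0.0610).

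Of 20 tested inflammatory cytokine and feedback genes none was called higher in the plate, lot or same-plate fit. That is near the shares of all genes, which were 1.58%, 4.18% and 1.47%. The lot fit called 5 lower, against 4.92% of all genes. Tnf was at 5.03 to 32.4 CPM in cultures 1 to 4 and at 149 and 87.8 CPM in cultures 5 and 6, with untreated wells at 18.96 to 52.4 CPM on plate 1 and 142 to 219 CPM on plate 2. Its log2 fold change of −0.74 ± 0.48 in the plate fit was not called (adjusted p = 0.370). Ccl5 was called lower in the lot fit (−1.72 ± 0.33, adjusted p = 0.000203) and had adjusted p = 0.0804 in the plate fit. No Toll-like receptor gene of 13 tested was called in any of these fits, where 6.57%, 4.92% and 0.563% of all genes were lower. Beside the same shares, 2 of 20 interferon response genes were called lower in the plate fit, 1 in the lot fit and none in the same-plate fit.

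The counts of the remaining lists stand beside shares of all genes of 1.58% higher and 6.57% lower in the plate fit. These shares were 4.18% and 4.92% in the lot fit and 1.47% and 0.563% in the same-plate fit. Whether a list differed from them was not tested. Apoptosis regulators had 1 gene higher (Bmf) and 2 lower of 18 in the plate fit. Cflar, an inhibitor of death receptor signalling, was among the falls (−1.06 ± 0.30, adjusted p = 0.0182) and was at 78.7 to 178 CPM against 285 to 341 CPM on plate 2. Myeloid transcription factors had 1 of 22 higher and 3 lower, among them Etv5 (−1.42 ± 0.41, adjusted p = 0.0234), which on plate 1 was at 53.2 to 168 CPM against 15.8 to 73.2 CPM. Myc was lower in the plate fit (−2.38 ± 0.67, adjusted p = 0.0187) and the lot fit (−1.64 ± 0.44, adjusted p = 0.00747). Cflar, Etv5 and Myc were not called by the plate fit without culture 5, with log2 fold changes of −1.03, −1.19 and −2.38 (adjusted p = 0.399, 0.552 and 0.373). Fatty acid oxidation genes had 2 of 23 lower in the plate fit and none called in the lot and same-plate fits. The 4 genes of the NRF2 list called lower in the same-plate fit, of 16 tested, were not called in the plate or lot fits. Genes of ER stress and the amino acid response had 1 of 19 higher (Phgdh) and 1 lower. LXR and lipid efflux genes had 3 of 13 lower in the plate fit, and p53 targets 1 of 13. The inositol, GABA and GSK3 pathway had 2 of 12 lower, phagocytosis and complement genes 1 of 25 lower, and receptors for chemokines, cytokines and purines 1 of 15 higher and 2 lower.

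Markers of other cell types were summed over their whole lists. The endothelial sum of 7 markers was 81.3 to 144 CPM against 24.4 to 49.7 CPM on plate 1 and 66.6 to 83.4 CPM against 33.3 to 46.2 CPM on plate 2. All 6 sums lay within the range of the 40 untreated 24 h wells, at 33.3 to 192 CPM. Flt1 and Kdr, both receptors for vascular endothelial growth factor, were at 33.01 to 119.95 CPM and at 3.70 to 35.7 CPM, and their untreated medians were 13.3 and 0.208 CPM on plate 1 and 10.9 and 4.84 CPM on plate 2. Pecam1 was at 11.8 to 22.4 CPM against medians of 20.5 and 15.2 CPM, and the defining endothelial genes Cldn5, Cdh5 and Tek were listed at 0 in all 6 cultures. The astrocyte sum of 8 markers was 22.3 to 45.5 CPM on plate 1 against 5.33 to 84.6 CPM, and 39.6 and 146 CPM in cultures 6 and 5 against 11.7 to 29.4 CPM on plate 2. Cultures 5 and 6 lay above all 40 untreated 24 h wells, which reached 38.1 CPM, with Aldoc at 84.2 and 37.7 CPM and Aldh1l1 at 61.3 CPM in culture 5, while Gfap was at 0 in 5 of the 6. The part of these cells in the results was not tested. Neuronal markers summed to at most 18.1 CPM with valproic acid and 36.98 CPM in untreated 24 h wells, the former in culture 3, where it was Rbfox3. Perivascular macrophage markers, mainly Mrc1 and Cbr2, summed to 32.3 to 44.4 CPM against 14.5 to 56.9 CPM on plate 1, and to 111 to 118 CPM against 207 to 229 CPM on plate 2, where the groups did not overlap. Monocyte markers summed to 23.3 to 42.1 CPM against 8.86 to 26.1 CPM on plate 1, and to 71.9 to 75.1 CPM against 76.8 to 99.2 CPM on plate 2. Sums for monocyte, neutrophil, lymphocyte and erythrocyte markers with valproic acid lay within the range of the untreated 24 h wells, apart from B cell markers (at most 4.95 CPM against 3.72 CPM) and erythrocyte markers (at most 1.21 CPM against 0.738 CPM). Fibroblast and mural cell markers summed to 8.39 to 156 CPM, within the untreated 24 h range, and oligodendrocyte markers to 39.7 to 110 CPM, the lowest of which was under the untreated minimum of 49.5 CPM. The share of CPM in mitochondrial genes was 1.28% to 1.73% with valproic acid and 0.903% to 11.8% in untreated 24 h wells.

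Against the other stimuli of the panel at 24 h, valproic acid gave the highest mean of 39 conditions, 38 stimuli and no treatment, for 9 of the 10 largest rises. These means are set side by side over plates and lots and were not tested, and the genes were chosen as the largest changes in these same cultures, which favours a place at either end. For H2-Ab1 it came second, with a mean of 81.8 ± 71.2 CPM (SD, n = 6), after interferon gamma at 283 CPM and ahead of the next stimulus at 10.6 CPM. H2-Aa was far below its level with interferon gamma, at 17.6 ± 23.1 CPM against 1147 CPM, and H2-DMa was at 90.5 ± 26.9 CPM against 325 CPM. H2-Ob was highest with valproic acid, at 18.5 ± 8.63 CPM, and the next stimulus had 5.87 CPM.

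Got2 was at 417 ± 140 CPM (SD, n = 6) with valproic acid, and the other 38 conditions had means from 56.9 to 152 CPM. Cyp4f18 was at 62.1 ± 44.2 CPM, and the next stimulus at 11.2 CPM. At the other end, valproic acid gave the lowest mean of the 39 for Arhgef39, Car9, Pmf1 and Orc5, as well as for Brd2, Ep300, Klf2, Hmgcs1 and Cflar. The mean of Pmf1 was 21.9 ± 12.9 CPM and the lowest mean among the others was 31.5 CPM.

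**Figure D4:**
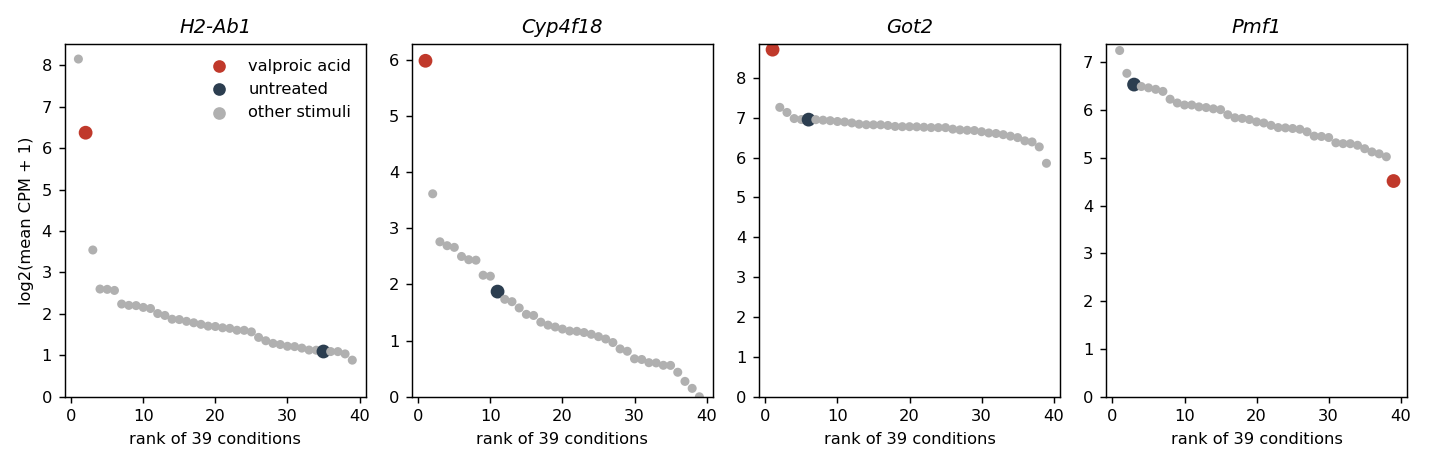
Mean level, as log2(mean CPM + 1), of H2-Ab1, Cyp4f18, Got2 and Pmf1 in the 39 conditions at 24 h, each ordered from highest to lowest, with valproic acid in red and no treatment in dark blue. Valproic acid was second for H2-Ab1, behind interferon gamma at 283 CPM, first for Cyp4f18 and Got2, and last for Pmf1.

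Valproic acid was then compared with the long-chain fatty acids, since it is itself a fatty acid with a short and branched chain. The groups were oleic acid with 8 cultures, linoleic acid with 9 and palmitic acid with 6, and none shared a plate with valproic acid. The doses differed (1000 uM against 150 uM), so the contrast compares these conditions, not the compounds at a matched dose, and it shares plates and untreated wells with the comparison above. In a fit of all 374 single-stimulus and untreated cultures at 24 h with plate as a term, 737 of 14208 genes were higher with valproic acid than with the mean of the fatty acids (5.19%) and 815 lower (5.74%). Without culture 5 these counts were 109 and 18, and without culture 6 they were 1130 and 1831.

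Like the plate fit, this contrast rests on cultures 5 and 6. Leaving out any 1 of cultures 1 to 4 gave 734 to 738 genes higher and 813 to 816 lower. The largest rises in that contrast with a mean of 10 CPM were Cyp4f18, Dusp14, Fbxl16, Gm21986 and H2-Aa, and of the 5 largest falls 4 were Psmc3ip, Nfkbid, Arhgef39 and Pmf1. Cyp4f18 was higher by 5.76 ± 0.69 on the log2 scale (adjusted p = 2.14e-12). Pmf1 was lower by −3.70 ± 0.49 (adjusted p = 3.05e-10). Of 20 cholesterol synthesis genes 8 were lower with valproic acid (5.74% of all genes) and none higher (5.19%). Of 10 MHC class II genes 3 were higher and none lower. Dusp14, a dual-specificity phosphatase, was listed at 0 in culture 1, at 6.43 to 9.73 CPM in cultures 2 to 4, at 136 CPM in culture 5 and at 14.9 CPM in culture 6. Fbxl16, an F-box protein, was listed at 0 in cultures 1 and 2 and was at 55.9 and 83.0 CPM in cultures 5 and 6. Of 23 genes of fatty acid oxidation, 1 was higher (5.19% of all genes) and 5 were lower (5.74%) with valproic acid. Their median log2 fold change was −0.21 where that of all genes was −0.05.

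The co-expression modules were defined by the study on these same cultures and are no independent evidence of direction. Of 31 modules, the one named PI_turquoise had the highest median log2 fold change in the plate fit, at 0.49, with 5 of 35 genes called higher, against 1.58% of all genes, and 1 lower. The lot fit called 7 of its genes higher, the same-plate fit 3 of 30 and the plate fit without culture 5 none. In the module named YE_blue, 13 of 65 genes were called lower in the plate fit, against 6.57% of all genes, and 1 higher. The lot fit called 7 lower, against 4.92% of all genes, and 1 higher. The same-plate fit went the other way, with none lower and 5 of 65 higher, against 1.47% of all genes. The median log2 fold change of YE_blue was −0.58, −0.05 and 0.19 in these fits, and −0.22 in the plate fit without culture 5.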

How the data were processed

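RNA of mouse primary microglia was sequenced from the 3′ end after T7 amplification. The authors assigned reads to Ensembl mouse build 81 with Salmon 0.7.1, summed them per gene, scaled each culture to its mapped reads, removed shallow cultures and deposited CPM, which the paper calls TPM. The labels name the build mm8, and positions given here are those of GENCODE M21 (GRCm38). Treatment and time came from the labels, and plate, cell lot, library pool and well from the header of the table. Of its columns, 399 were used and 385 were not. A table of microglia isolated from mice was not used here. From the deposited CPM, genes over 5 CPM in at least 4 cultures of a fit were tested with limma 3.58.1 (R 4.3.3) on log2(CPM + 1) with a mean-variance trend, and fold changes on this scale understate those of low genes. Calls needed a Benjamini-Hochberg adjusted p under 0.05 over all genes tested and a change of 1 or more on the log2 scale in either direction. Genes named were members of the lists and the 10 largest called rises and falls with a mean of at least 10 CPM in the higher group and no overlap of the 6 cultures with the untreated 24 h wells of their plates, and for the fatty acid contrast the 5 largest of each by the same level rule. A gene among the largest falls is not reported here. The members and lists were chosen with earlier results of these data known. Scripts were tested on simulated data. The low values of a valproic acid culture were whole multiples of 1 step, to within 0.1 step, for 78.6% to 85.1% of genes, which gave its depth. Because the rest were not whole, no count test was run. The plate term, the filter, the pseudocount, the scaling, the control wells and the cultures were varied.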

Additional observations from a re-analysis of the deposited data

Results flagged for a closer look

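In 8 cases 1 of the 6 valproic acid cultures lay far from the other 5 by Dixon's criterion, which chance meets in about 5% of groups. Culture 5 had 7362 genes over 5 CPM, the fewest of the 6. It was also the lowest culture for Pmf1 at 2.02 CPM, Orc5 at 0 CPM, Hdac1 at 0 CPM, Tmem119 at 3.37 CPM, Cdk1 at 1.35 CPM and Hmgcs1 at 0.674 CPM. Culture 4 was the highest for Sgol2a, at 19.5 CPM.

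The change with valproic acid differed between the cell lots for 16 of the genes named, by the interaction of treatment and lot in limma, with adjusted p from 0.00243 for Gm21986 to 0.0466 for Cdkn1a and Igf1. Over all genes it differed for 1216 of 10858. The log2 fold change was higher in the lot of plate 1 than in that of plate 2 by 3.08 for H2-Ab1, 3.07 for Hdac1, 2.76 for Hmgcs1, 2.62 for Ep300, 2.58 for Myc, 2.32 for Ccnd2, 1.98 for Msmo1 and for Pcna, 1.46 for Cdkn1a, 1.33 for Fabp5 and 1.04 for Igf1. For Hmgcs1, Ep300, Myc, Msmo1, Pcna, Fabp5 and Igf1 both lots had a fold change under 0, and the lot of plate 1 had the smaller one. The difference was −5.04 for Gm21986, −3.57 for Fbxl16, −3.28 for Cyp4f18, −2.71 for Ccl5 and −2.61 for Tnf. Culture 5 belongs to the lot of plate 2. Lot, plate and position of the wells cannot be told apart in these comparisons.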

How the results depend on the processing

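Counts of called genes depended on the fit and above all on culture 5. Against untreated wells, 184 genes were higher and 763 lower. The number higher was 623 with all single-stimulus cultures in the fit, 485 with cell lot in place of plate, 478 with cell lot and without culture 5, 70 with an exact rank-sum test with Bonferroni correction, 509 without a plate term and 40 with only the wells of the valproic acid plates, and it ran from 11 to 550 when each valproic acid culture was left out in turn. The number lower was 263 with cell lot and without culture 5, 19 with the rank-sum test, 68 with only the wells of the valproic acid plates and 56 with the same-plate wells of 24 or 72 h, and it ran from 16 to 2053 with 1 culture left out. Against the fatty acids, 737 higher became 260 with only valproic acid, fatty acid and untreated cultures and ran from 109 to 1130 with 1 culture left out. The 815 lower became 1462 without a plate term and 510 with a pseudocount of 5, and ran from 18 to 1831. In each case the extremes were the fits without culture 5 and without culture 6.

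The sign changed for 3 of the genes named, and only Cdkn1a without a plate term was called where it did (limma, adjusted p = 0.0246). Cdkn1a, at −0.05, was at 0.24 with all single-stimulus cultures, 0.25 with cell lot, 0.45 with cell lot and without culture 5, 1.63 without a plate term and beside the rank-sum test, 0.0558 with median-of-ratios scaling, 1.07 with plate as a random block and 0.20 with the same-plate wells. Hdac1 was at 0.37 with cell lot and without culture 5 and ran from −4.59 to 0.0427 with 1 culture left out, the highest without culture 5. Tmem119 ran from −1.29 without culture 6 to 2.12 without culture 5. The cause was not tested. Of the 10 named rises, 9 could be tested without culture 5 and 4 of them were called, and of the 9 named falls 1 was called. A fit with library pool in place of plate was not run, since the pools of valproic acid held no untreated 24 h well. No paired analysis was possible because the labels give libraries no replicate numbers, and culture plate was the block. The lot, same-plate and culture 5 alternatives with lot were chosen after seeing the data. Depth limits culture 5 most, at 1.46 M reads (M, 1e6 reads).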
